A study of Homo sapiens with 3 samples.

Results

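Inflammasomes are cytosolic protein assemblies that turn a danger signal into cell death and cytokine release. The 10 genes examined here code for their parts, namely the sensors NLRP3, NLRP1, NLRC4 and AIM2, the adaptor PYCARD, the caspases CASP1, CASP4 and CASP5, the pore-forming GSDMD and the NLRP3 partner NEK7. They were chosen by name, with earlier results of these data known, as the transcript probes that the array design assigns to those symbols. This gave 13 probes for 10 genes, of 58201 transcript probes and 43317 gene names on the array, and 3 of the genes (NLRP3, NLRP1 and NLRC4) had 2 probes.

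Transcripts were measured in THP-1 macrophages on 3 one-color oligonucleotide arrays of 1 slide, with 1 RNA sample behind each. THP-1 cells come from a human monocytic leukemia, and all cells on all arrays had first been turned into macrophage-like cells with the phorbol ester PMA at 100 ng/ml for 24 to 36 h and rested overnight in fresh medium. Ctrl received neither agent, IMQ received imiquimod (a synthetic ligand of the endosomal receptor TLR7), and IMQ+DMD was pretreated with DMD, a benzenoid compound, before IMQ. The labels write the last condition as IMQ+X and the name DMD was taken from the treatment protocol, which names no other compound, while the labels give 4 h for every array and no dose of either agent. Because 1 array stood for each condition, the differences below stand without replicates and without p-values, and condition cannot be told apart from the position of the array on the slide. A DMD array without IMQ was not analysed here. All cells were of 1 line, and in bulk RNA fewer expressing cells and less RNA per cell cannot be told apart.

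In the canonical pathway a sensor recruits the adaptor PYCARD, also called ASC, which gathers pro-caspase-1 so that it cuts itself free. Active caspase-1 matures the cytokines IL-1β and IL-18 and cleaves gasdermin D, whose released fragment opens pores in the plasma membrane. Caspase-4 and caspase-5 sense bacterial lipopolysaccharide in the cytosol and cleave gasdermin D directly. In macrophages the NLRP3 sensor is known to need a priming step, in which toll-like receptor signaling raises its transcript and that of IL1B, before a second signal assembles the complex.

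The 60-base oligonucleotides behind the main differences are printed as the array design gives them, 5′ to 3′ in the sense of the transcript, because each value below for AIM2, NLRC4, PYCARD and CASP1 comes from a single stretch of that gene. Capitals in the NLRP3 sequence mark the TAG stop codon that closes its coding sequence, and no part of the others is marked.
AIM2: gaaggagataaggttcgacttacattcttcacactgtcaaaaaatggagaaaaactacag
NLRC4 probe 1: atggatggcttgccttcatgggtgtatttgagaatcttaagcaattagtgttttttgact
PYCARD: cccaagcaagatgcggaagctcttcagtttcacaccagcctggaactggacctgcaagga
CASP1: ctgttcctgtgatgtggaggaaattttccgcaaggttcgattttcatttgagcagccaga
NLRP3 probe 2: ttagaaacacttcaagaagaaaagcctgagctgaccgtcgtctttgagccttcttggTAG

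On the hg19 build the AIM2 probe lies at chr1:159033306-159033365, the NLRC4 probe at chr2:32449703-32449762, the PYCARD probe at chr16:31212970-31213029 and the CASP1 probe at chr11:104897058-104897602, all on the minus strand. The CASP1 oligonucleotide is 60 bases long but spans 545 bases of the genome, so it crosses at least one splice junction. NLRP3 probe 2 lies at chr1:247611747-247611806 on the plus strand and the brighter NLRP3 probe 1 at chr1:247612029-247612089, with 222 bases between them, so probe 1 lies beyond the stop codon. No hg19 annotation was used, and exons were not assigned beyond that.

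The cells carried the transcripts of macrophages on every array. Of 10 macrophage marker genes, 8 were on the array under those names, and all 8 were well above background on the 3 arrays, where "well above background" is the scanner software's own rating of a spot. After IMQ, CD163 and FCGR3A were the 2 of those 8 that were at least 2-fold lower at their brightest probe, and none was higher. Of the other MSR1 probes, 1 was also past 2-fold, at -1.02. The summed normalized intensity of the 8 was 297391 in Ctrl, 226300 in IMQ and 204070 in IMQ+DMD. CSF1R made up most of that sum and was at -0.38 after IMQ. Over the 8 genes the log2 differences after IMQ ran from -1.22 to 0.04, with a median of -0.56. The part of these marker levels in the differences below was not tested. All 4 T-cell, all 4 B-cell and 3 of 4 keratinocyte markers were also rated well above background on all arrays. None of the 12 differed 2-fold between IMQ and Ctrl at its brightest probe, with summed T-cell intensities of 961, 885 and 1038, B-cell sums of 4733, 3857 and 4552, and keratinocyte sums of 18885, 17830 and 18233 in Ctrl, IMQ and IMQ+DMD. CD79A made up most of the B-cell sum and KRT10 most of the keratinocyte sum. Between IMQ+DMD and IMQ, KRT5 alone of the 12 did, at least 2.16-fold higher with DMD and not well above background after IMQ. Brightness also depends on the probe, so levels of different probes are not set against each other. The 75th percentile of the background-corrected intensity was 625 on the Ctrl array, 459 on IMQ and 466 on IMQ+DMD, and between 66.6% and 72.0% of probes were well above background.

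AIM2, NLRC4, PYCARD and CASP1 were each at least 2-fold lower in IMQ than in Ctrl, NLRP3 was 1.57-fold and 1.59-fold higher at its 2 probes, and CASP4, CASP5 and NEK7 differed by no more than 0.06 on the log2 scale of the quantile-normalized values. Of 13 member probes, 12 could be compared and 4 of these (33.3%) were at least 2-fold lower, beside 3.48% of the 41109 probes compared over the whole array. None of the 12 was 2-fold higher, beside 4.31% of all probes. By gene, 4 of 10 were lower, beside 3.59% of all genes. The median difference of the 12 probes was -0.19, beside -0.01 over all probes compared. With DMD before IMQ, none of the 12 probes differed 2-fold from IMQ alone in either direction, beside 2.41% of the 40831 probes compared.

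**Figure D1:**
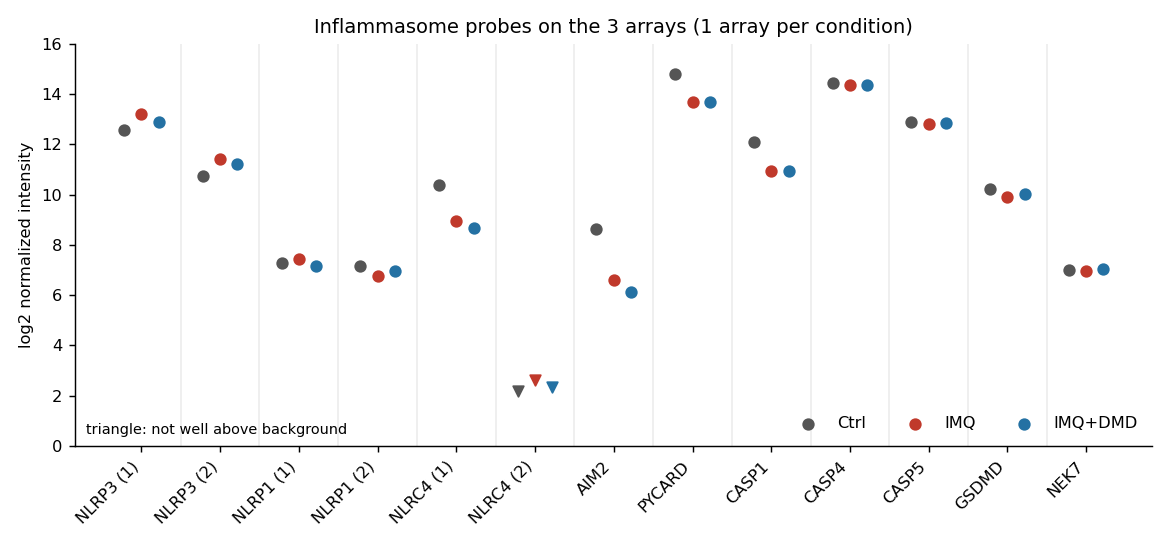
The vertical axis gives the log2 normalized intensity of each of the 13 inflammasome probes and the points give the Ctrl, IMQ and IMQ+DMD arrays (1 array each, no error bars). For AIM2, NLRC4 probe 1, PYCARD and CASP1 the Ctrl point lies at least 1 log2 unit above both others, for both NLRP3 probes it is the lowest, and NLRC4 probe 2 (triangles) was not well above background.

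Levels are log2 values of the normalized intensity, and a difference is IMQ minus Ctrl unless another pair is named. The spread given with a difference combines the SDs of repeated spots for both of its arrays, as the root of their summed squares. Each SD is that expected at the brightness of the probe, taken from 300 probes printed 10 times on each array. The spread covers the noise within an array and not that between cultures.

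NLRP3 senses potassium loss, crystals and many other disturbances of the cell. Its probe 1 read 12.57 in Ctrl, 13.22 in IMQ and 12.91 in IMQ+DMD, or 6067, 9519 and 7709 as normalized intensity. Its probe 2 read 10.76, 11.42 and 11.23 in the same order. At both probes Ctrl was the lowest array, IMQ the highest and IMQ+DMD between them. The rise after IMQ was 0.65 ± 0.06 at probe 1 and 0.67 ± 0.07 at probe 2, which is 1.57-fold and 1.59-fold and so short of 2-fold. At least 1.5-fold higher values were found for 11.2% of all probes, and the 2 NLRP3 probes were the only member probes among them. At least 1.5-fold lower values were found for 10.6%, with the same 4 member probes among them as at 2-fold. IMQ+DMD was 0.30 ± 0.06 below IMQ at probe 1 and 0.20 ± 0.06 below it at probe 2, and remained 0.35 and 0.47 above Ctrl. For IMQ+DMD minus IMQ, 6850 and 10276 of the 40831 probes compared were as low or lower. Over the scalings and filters that difference ranged from -0.47 to -0.20 at probe 1 and from -0.33 to -0.06 at probe 2. The probes share 1 transcript and 1 RNA sample per array, so they are not replicates of the treatment.

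NLRP1 detects viral proteases and cell stress in human epithelium. Its probe 1, at chr17:5424887-5424946, read 7.28, 7.43 and 7.16 in Ctrl, IMQ and IMQ+DMD. Its probe 2, at chr17:5418109-5418168, read 7.17, 6.76 and 6.96. The order of the arrays differed between the probes, with IMQ the highest at one and the lowest at the other. The differences of 0.14 ± 0.14 and -0.41 ± 0.24 had opposite signs, and neither reached 1.5-fold.

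NLRC4 answers bacterial flagellin and secretion needle proteins presented by NAIP. Its probe 1 read 10.40 in Ctrl, 8.94 in IMQ and 8.67 in IMQ+DMD. Both IMQ-treated arrays were low and Ctrl was high. The difference of -1.46 ± 0.08 made IMQ 2.75-fold lower, and 486 of the 41109 probes compared were as low or lower. IMQ+DMD was a further 0.27 ± 0.09 below IMQ and 3.32-fold below Ctrl. Probe 2 of the gene, whose 60 bases span 11352 bases of chr2:32466193-32477544, was not well above background on any array (processed intensity 5.07, 4.51 and 5.16), so no fold is given and NLRC4 rests on 1 probe.

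AIM2 binds double-stranded DNA in the cytosol and is known as an interferon-inducible gene. Its single probe read 8.64 in Ctrl, 6.60 in IMQ and 6.14 in IMQ+DMD, from processed intensities of 478, 78.6 and 69.7. Ctrl was high and the other arrays were low but still well above background. It had the lowest difference of the 12 member probes, -2.03 ± 0.22 or 4.09-fold lower, which left 24.4% of the Ctrl intensity. Of the 41109 probes, 126 were as low or lower, and AIM2 was the 1 member probe past 4-fold, beside 0.328% of all. The value in IMQ+DMD was 1.38-fold below that in IMQ, a difference of -0.46 ± 0.30, and 5.63-fold below Ctrl.

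The sequence before the AIM2 start is shown because AIM2 had the lowest difference of the members, a choice made after its values were seen. RefSeq (GRCh38.p14) places these 250 bases at chr1:159076767-159077016 on the minus strand, and they are written 5′ to 3′ toward the start. Capitals mark TGACTCA, a match to the AP-1 motif TGANTCA, and TTTCTGTTTC, a match on the other strand to the interferon-stimulated response motif (GAAA, any 2 bases, GAAA).
AIM2 promoter: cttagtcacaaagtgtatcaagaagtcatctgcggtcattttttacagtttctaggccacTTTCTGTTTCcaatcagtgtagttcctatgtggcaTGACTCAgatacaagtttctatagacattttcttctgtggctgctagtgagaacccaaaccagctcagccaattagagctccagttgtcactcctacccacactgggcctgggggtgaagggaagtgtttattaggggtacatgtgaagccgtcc

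RefSeq promoters were given for 6 of the 10 members (NLRP3, NLRC4, AIM2, PYCARD, CASP4 and CASP5), and both strands of the 250 bases before each start were searched. TGANTCA was found in AIM2 alone, 1 of 6, and in 8.06% of all 27305 genes with a promoter given. The interferon-stimulated response motif was found in AIM2 and CASP5, 2 of 6, and in 3.71% of all genes. The NF-kB motif (GGG, any 5 bases, CC) was found in NLRP3, NLRC4, PYCARD and CASP5, 4 of 6, and in 57.8% of all genes. The matches are letters in a window and the binding of no factor was measured.

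PYCARD, the adaptor between sensors and caspase-1, read 14.82 in Ctrl, 13.70 in IMQ and 13.68 in IMQ+DMD. Ctrl stood alone and the IMQ-treated arrays were level. The difference of -1.13 ± 0.06 was 2.19-fold, with 1044 of the 41109 probes as low or lower. IMQ+DMD differed from IMQ by -0.01 ± 0.06.

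CASP1, the protease of the canonical pathway, read 12.09 in Ctrl, 10.96 in IMQ and 10.93 in IMQ+DMD. The arrays had the same order and nearly the same spacing as for PYCARD. The difference of -1.13 ± 0.07 left 45.6% of the Ctrl intensity, beside 45.7% for PYCARD, and 1041 probes were as low or lower. IMQ+DMD differed from IMQ by -0.03 ± 0.07.

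CASP4 and CASP5, the lipopolysaccharide-binding caspases, did not share that pattern. CASP4 (chr11:104815492-104815551) read 14.44, 14.37 and 14.39 in Ctrl, IMQ and IMQ+DMD, and CASP5 (chr11:104868142-104868201) read 12.88, 12.82 and 12.84. For each gene the 3 arrays lay within 0.1 of each other on the log2 scale. The differences after IMQ were -0.06 ± 0.06 for both, and those after DMD were 0.01 ± 0.06 and 0.02 ± 0.06.

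GSDMD, the substrate that forms the pore, lies on chromosome 8 and read 10.21 in Ctrl, 9.90 in IMQ and 10.02 in IMQ+DMD. IMQ was the lowest array, by 0.31 ± 0.07 or 1.24-fold from Ctrl, and IMQ+DMD lay between. NEK7, a kinase that bridges neighboring NLRP3 molecules, read 7.02, 6.98 and 7.06 at chr1:198288674-198288733. Its differences of -0.04 ± 0.24 and 0.08 ± 0.24 were smaller than their spread.

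**Figure D2:**
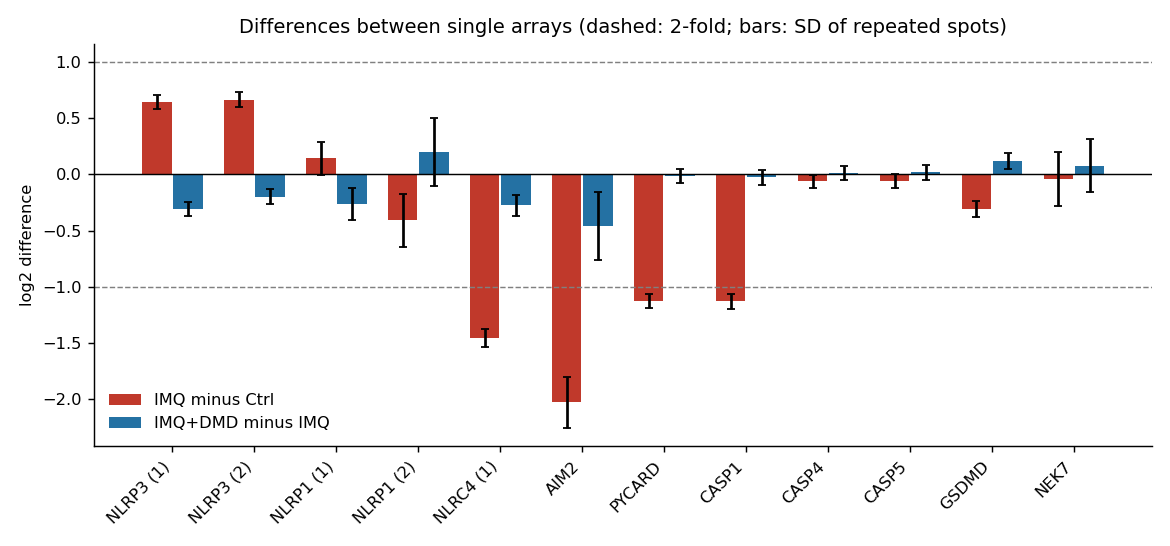
Bars give the log2 difference of each comparable member probe for IMQ minus Ctrl (red) and IMQ+DMD minus IMQ (blue). Error bars give the SD of repeated spots within an array, combined over both arrays of the difference, and dashed lines 2-fold. The 4 lowest red bars pass the lower line, from -1.13 for PYCARD and CASP1 to -2.03 for AIM2, and no blue bar is longer than 0.46.

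The comparison of IMQ+DMD with IMQ asked whether DMD pretreatment was accompanied by another level of these genes. All 12 comparable probes lay within 0.5 of their IMQ value on the log2 scale, from -0.46 for AIM2 to 0.20 for NLRP1 probe 2. Of the 12, 7 were below 0 and 5 above, with a median of -0.02 beside -0.01 over all probes. On the quantile-normalized scale none of the 4 genes that were low after IMQ was higher with DMD. In IMQ+DMD against Ctrl the same 4 probes were at least 2-fold lower, by -1.73 for NLRC4, -2.49 for AIM2, -1.14 for PYCARD and -1.16 for CASP1, beside 4.91% of the 43692 probes compared. At 4-fold AIM2 alone was lower, beside 0.636% of all. None was 2-fold higher, beside 3.09% of all. The 3 comparisons share arrays, so these values are not independent of each other.

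**Figure D3:**
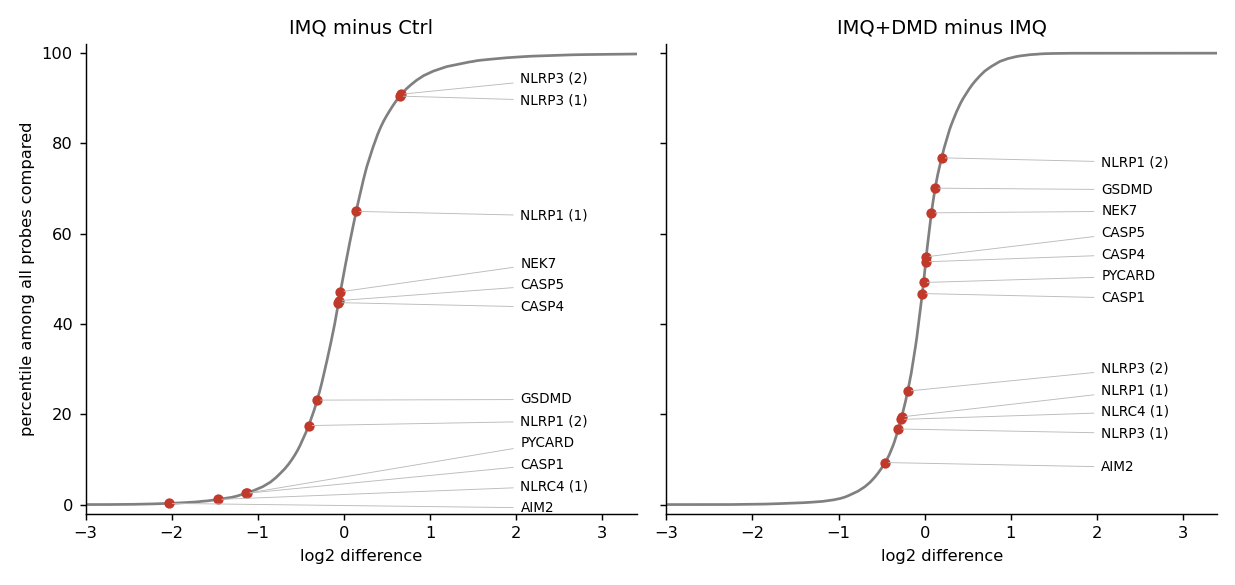
Each panel places the member probes (red) on the cumulative curve of all probes compared (grey), with the log2 difference on the horizontal axis and the percentile on the vertical axis. In the left panel AIM2, NLRC4, CASP1 and PYCARD lie between percentiles 0.304 and 2.54 and NLRP3 at 90.5 and 90.9, while in the right panel every member lies between 9.35 and 76.8.

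Whether a member counted as lower depended little on how arrays were put on a common scale, but the size did. The median of all probes for IMQ minus Ctrl was -0.07 when arrays were scaled to the 75th percentile, -0.51 without normalization between arrays and -0.69 when scaled to 8 spike-in probes. AIM2, NLRC4 probe 1, PYCARD and CASP1 were at least 2-fold lower under each of these, and spike-in scaling added NLRP1 probe 2 at -1.16. The share of all probes at least 2-fold lower was 4.60%, 15.6% and 24.7% under the same 3 scalings, so the members' count stands beside a much larger background without normalization and under spike-in scaling. CASP4, CASP5, NEK7 and GSDMD were at -0.37, -0.42, -0.61 and -0.72 without normalization and at -0.55, -0.59, -0.78 and -0.90 under spike-in scaling, while relative to the median of all probes they lay between -0.21 and 0.15 under the 3 scalings. Taken relative to the median of all probes, AIM2 lay between -2.10 and -2.09, NLRC4 between -1.40 and -1.39 and CASP1 between -1.01 and -1 under the same 3 scalings. PYCARD lay at -0.93 or -0.94 there, just short of 2-fold. The 3 scalings differ only by a constant per array, which the median takes out. Their near agreement relative to the median was therefore fixed in advance. Without normalization the NLRP3 rise was 0.32 and 0.29 at probes 1 and 2, spike-in scaling gave 0.14 and 0.12, and it was 0.83 and 0.80 or 0.81 relative to the median. For IMQ+DMD against Ctrl, the NLRP3 probes were at -0.13 and -0.01 where no normalization was applied and at -0.06 and 0.05 under spike-in scaling, so whether NLRP3 stayed above Ctrl with DMD depended on the scale. Under spike-in scaling, where the median of all probes for IMQ+DMD minus IMQ was 0.31, the small differences of AIM2, NLRC4, PYCARD and CASP1 turned positive, from 0.02 to 0.11, and relative to that median they were between -0.29 and -0.20.

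**Figure D4:**
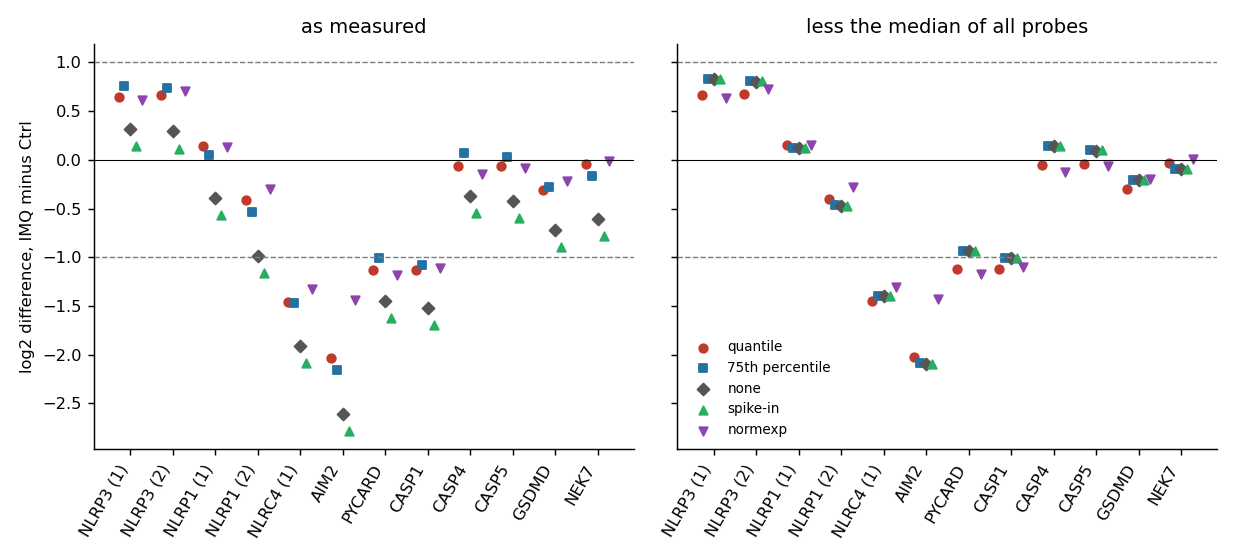
Points give the IMQ minus Ctrl log2 difference of each member probe under 5 ways of scaling, as measured on the left and after subtraction of the median of all probes on the right, with dashed lines at 2-fold. The AIM2, NLRC4, PYCARD and CASP1 points lie at or below -1 on the left. On the right the 3 scalings without quantile normalization nearly coincide by construction, because they differ only by a constant per array. Under those 3 PYCARD lies just above -1 on the right.

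The cytokines that caspase-1 matures differed from each other. IL1B read 13.74 in Ctrl, 18.18 in IMQ and 18.01 in IMQ+DMD, 21.8-fold higher after IMQ and 0.18 lower on the log2 scale with DMD. IL18 read 8.60, 8.26 and 8.13, a difference of -0.34 after IMQ. IL1B was high on the arrays where PYCARD and CASP1 were low, while IL18 had the same array order as CASP1 with differences under 2-fold on every pair.

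Other genes of the pathway were taken from lists by role, 47 genes including IL1B and IL18, each read by its brightest probe. These lists too were chosen with earlier results of these data known. In all, 43 could be compared, of which 5 were at least 2-fold higher and 7 lower after IMQ, beside 4.17% and 3.59% of all genes. Their median was -0.15. In IMQ+DMD against IMQ, 0 of 41 were 2-fold different in either direction, beside 2.44% of all genes. In IMQ+DMD against Ctrl 3 of 44 were higher and 9 lower, beside 3.04% and 4.83% of all genes.

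Of 13 other sensors, 11 could be compared, 3 were lower, none was higher and the median was -0.23. NOD1, a receptor of bacterial peptidoglycan fragments, was at 7.73, 5.95 and 5.79 and so lower by -1.78 (from -2.58 to -1.13 over the scalings and filters), and IFI16, a DNA sensor of the AIM2 family, was lower by -1.43. NLRP12 was not well above background after IMQ and was at least 2.78-fold lower, though normexp background correction shrank that bound to a log2 difference of -0.60.

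Of 12 inhibitors, 10 could be compared, with 2 higher, 1 lower and a median of 0.07. TNFAIP3, a ubiquitin-editing brake on NF-kB signaling, was 3.80-fold higher, and SERPINB9, an inhibitor of granzyme B and caspase-1, was 3.25-fold higher and 0.81 lower on the log2 scale with DMD than with IMQ alone. Over the scalings and filters the SERPINB9 rise ranged from 1.02 to 1.70 and its difference with DMD from -0.81 to -0.41. PYDC1, a pyrin-only protein that resembles PYCARD, read 10.83, 9.73 and 9.73 and was lower by -1.10, with a range of -1.69 to -1.03.

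All 13 genes upstream of NLRP3 or of membrane rupture could be compared, with 2 higher, 1 lower and a median of 0.14. P2RX7, the ATP-gated channel that lets potassium out, was 2.01-fold higher. NINJ1, which ruptures the membrane after the gasdermin pore, was 3.02-fold higher, and TXNIP, a thioredoxin-binding protein reported to act on NLRP3, was 3.48-fold lower. The P2RX7 difference ranged from 0.44 to 1.06 over the scalings, and from 0.96 to 1.14 relative to the median of all probes. Of 7 GBP and other interferon-related genes of the caspase-4 route, GBP1 and GBP3, GTPases that coat bacteria, were lower by -1.49 and -1.70, none was higher and the median was -0.45. As measured, 4 of 43 pathway genes were higher and 12 lower without normalization, beside 1.71% and 15.6% of all probes. Under spike-in scaling 4 of 42 were higher and 15 lower, beside 1.34% and 24.7% of all probes. Relative to the median of all probes, between 4 and 6 of the 47 were higher and between 6 and 9 lower under the scalings and filters tried.

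**Figure D5:**
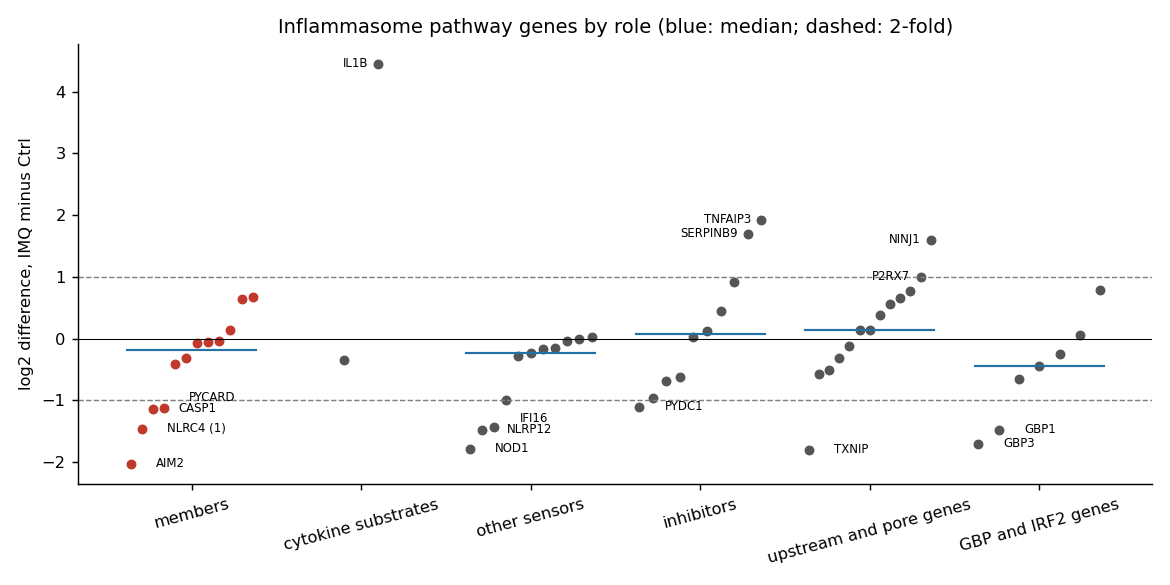
Points give the IMQ minus Ctrl log2 difference of the member probes (red) and of the pathway genes by role (grey), blue lines the median of each list with over 2 genes, and dashed lines 2-fold. IL1B stands highest at 4.45, the named points pass 2-fold, and the points of NLRP12, TRIM31 and IRGM are bounds because 1 array was not well above background.

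Genes beside the members on the chromosome were read after the members' values were seen, with the order taken from the RefSeq gene table. On chromosome 11, where the probes of CASP4, CASP5 and CASP1 lie within 82.1 kb, CASP4 and CASP5 were level, CASP12 beside CASP4 was higher by 0.84 at a dim probe (4.18, 5.02 and 5.12), CASP1 was lower by -1.13 and the next genes CARD16 and CARD17 by -0.96 and -0.61. CARD16 and CARD17 resemble the start of CASP1, so the array could in part read one for another, which was not tested. On chromosome 1, IFI16 lies beside AIM2 in the PYHIN cluster of interferon-inducible genes, which spans 216 kb by its probes. PYHIN1 lies next and MNDA farthest from AIM2. MNDA, a nuclear protein of myeloid cells, read 8.58, 5.37 and 4.86 and was 9.30-fold lower after IMQ, while the other member of the cluster, PYHIN1, was at -0.24 at its measurable probe. On chromosome 16, PYDC1 was lower by -1.10 beside -1.13 for PYCARD, while ITGAM, further along, was at -0.22. PYDC1 resembles PYCARD, and whether its probe in part read PYCARD was not tested.

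The genes whose pair of differences (IMQ minus Ctrl and IMQ+DMD minus IMQ) lay nearest to that of NLRP3 probe 1 were KBTBD8, KNG1, MAP3K10, VTRNA1-1 and TNP2, at distances of 0.012 to 0.014 log2 units among 29338 genes well above background on all arrays. With 3 arrays such nearness is a description only.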

How the data were processed

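Cy3-labeled RNA of each condition was hybridized to 1 array. The authors deposited scanner output (Feature Extraction 10.5.1.1) with a background-corrected intensity and quality marks for each spot, and a table of raw and quantile-normalized intensity for each probe. The normalized intensity was used here as log2 values, and the scanner output gave flags, probe sequences and hg19 positions. Comparison required a rating of well above background on the brighter of the arrays. For a dim probe the floor was the lowest normalized value with that rating on its array, its own value was kept if higher, and no fold is given where that bound was under 1. Probes counted as different at 2-fold. None of the 39 member spots was flagged (0) and none was saturated. No test was run with 1 array for each condition, and precision is limited by that number.

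The named genes were all members, IL1B, IL18, the listed pathway genes at 2-fold after IMQ or DMD, and the 5 genes nearest to NLRP3. Members and lists were chosen with earlier results of these data known. Alternatives tried were no normalization, scaling to spike-in probes or to the 75th percentile, normexp background correction (offset 50), quantile normalization without flagged spots, other background filters, and 1.5-fold and 4-fold thresholds. The tools were matplotlib 3.10.9, pandas 2.3.3, numpy 2.4.6, Python 3.11.15, limma 3.58.1 and R 4.3.3, and the calling step was tested on simulated data.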

Additional observations from a re-analysis of the deposited data

How the results depend on the processing

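The same 4 member probes were at least 2-fold lower, as measured, after IMQ and in IMQ+DMD against Ctrl under every alternative scaling, background correction and filter run. Relative to the median of all probes, PYCARD after IMQ was short of 2-fold (-0.93 or -0.94) under scaling to the 75th percentile, no normalization and spike-in scaling. These scalings differ only by a constant per array, so relative to the median they are not separate checks. Spike-in scaling added NLRP1 probe 2 (5 lower), where 24.7% of all probes were lower. At a 4-fold threshold 1 probe, AIM2, was lower in IMQ against Ctrl (0.328% of all) and 1 in IMQ+DMD against Ctrl (0.636%). At 1.5-fold, 6 probes passed after IMQ, 2 higher and 4 lower (11.2% and 10.6% of all). No member passed 2-fold between IMQ+DMD and IMQ under any alternative. AIM2 after IMQ ranged from -2.78 with spike-in scaling to -1.44 with normexp correction. Of 282 alternative values of members, 96 repeat the value as reported by construction. Of the other 186, 97 moved by no more than the spread given with the difference and 89 moved further. Among the 186, 20 changed sign, all 20 on members under 2-fold in that comparison. The cause was not tested. Leaving out a replicate could not be run. No paired analysis was possible because each condition has 1 array.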
